A study of Mus musculus with 6 samples.

Results

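Type I interferon-stimulated genes were examined in type 1 conventional dendritic cells (cDC1s), as a named list of 35 antiviral and regulatory genes. Of these, 33 were matched by GENCODE M21 symbol to the deposited table of 32285 features, and Mx1 and Mx2 were not analysed here. C57BL/6 mice of both genotypes were given house dust mite (HDM) intranasally, at 50 µg, and 24 h later cDC1s were purified from the mLN with a flow sorter. The tested mice carried the genotype given as Vps33BdeltaDC, a conditional knock-out of Vps33b (KO, 3 libraries), and the other mice were wild type (WT, 3 libraries). Neither the Cre driver, the deleted exons, the age of the mice nor the number of mice behind a library is stated in the labels, and no group without HDM was included. The p-values therefore measure the spread between these libraries, which may be technical.

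Type I interferons (interferon alpha and beta) bind a receptor made of IFNAR1 and IFNAR2, whose kinases TYK2 and JAK1 activate the factor ISGF3. It includes STAT2 and IRF9 and binds the interferon-stimulated response element in the promoters of its target genes. The targets include RNA sensors, enzymes that degrade or block viral RNA, and IRF7, which amplifies further interferon production. Dendritic cells carry a part of this programme at rest, and cDC1s need interferon signalling for efficient cross-presentation of antigen.

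Library totals lay between 11755944 and 17434247 counts in KO and between 14949229 and 18450678 counts in WT. Vps33b was at 5.0, 7.01 and 8.29 CPM (counts scaled to a common library size with TMM factors) in KO replicates 1 to 3, against 16.2, 19.1 and 13.8 CPM in WT replicates 1 to 3. Permuting the genotype over all splits of these libraries (exact, two-sided) gave p = 0.1, and no smaller value can occur with 3 libraries per group. In the edgeR fit across all genes, the log2 fold change of Vps33b, KO over WT, was -1.28 ± 0.27 (SE). Its edgeR adjusted p was 0.834, so the targeted gene itself did not pass the threshold of 0.05. All 10 cDC1 markers were detected, with Irf8 at 1244 to 1741 CPM in KO and 1328 to 1481 CPM in WT. None passed the edgeR adjusted threshold, 3 were lower in KO at an unadjusted p under 0.05 (3.06% of all genes tested), and none was higher. These were Wdfy4 (-0.89 ± 0.25, log2 fold change ± SE), Xcr1 (-1.43 ± 0.59) and Clec9a (-0.38 ± 0.17), and every KO library lay below every WT library for Wdfy4 and Xcr1. The 8 markers of mature, migratory cells summed to 16159, 18924 and 21667 CPM in KO replicates 1 to 3. In WT replicates 1 to 3 they summed to 16461, 15393 and 16205 CPM, so KO replicate 3 was highest and WT replicate 2 lowest. No marker of this list passed the edgeR adjusted threshold. At an unadjusted p under 0.05, 1 was higher in KO (2.71% of all genes tested), Cd80 (0.63 ± 0.19), and none was lower. Ccr7, of the same list, was at 5131 to 5469 CPM in KO and 4365 to 5272 CPM in WT.

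The promoters of some members hold a match to the core of the element through which ISGF3 and other interferon regulatory factors act. Windows from 250 bases before to 50 bases after the gene start, from RefSeq on GRCm38.p6, were at hand for 26 of the 33 members. The core searched for was GAAA, any pair of bases, then GAAA, on both strands (TTTC, any pair of bases, TTTC on the other strand), with overlapping matches counted separately. It occurred in a window of 15 of the 26 members (57.7%), against 1079 of 27025 genes in the whole table (3.99%). The other 11 members, among them Irf7, Oasl1 and Ifi35, had no exact match in these windows. Stretches are shown for 9 members, chosen so that near-identical paralogs, and genes with wide and narrow spread between libraries, can be compared. Each is written 5′ to 3′ on the strand of the gene, with every match in capitals.
Isg15 (chr4:156200850-156200921, minus strand): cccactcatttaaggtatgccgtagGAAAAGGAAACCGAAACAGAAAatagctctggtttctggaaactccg
Oas1a (chr5:120907526-120907570, minus strand): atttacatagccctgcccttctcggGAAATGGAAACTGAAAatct
Oas1g (chr5:120887614-120887656, minus strand): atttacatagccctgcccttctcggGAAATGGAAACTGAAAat
Oas3 (chr5:120777700-120777759, minus strand): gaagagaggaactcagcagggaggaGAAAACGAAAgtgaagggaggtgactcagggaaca
Ifit1 (chr19:34640760-34640838, plus strand): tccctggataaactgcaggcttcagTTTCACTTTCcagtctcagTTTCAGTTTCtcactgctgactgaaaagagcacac
Ifit3 (chr19:34583348-34583441, plus strand): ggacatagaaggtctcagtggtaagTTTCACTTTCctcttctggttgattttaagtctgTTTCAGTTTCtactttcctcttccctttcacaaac
Ifit3b (chr19:34607744-34607837, plus strand): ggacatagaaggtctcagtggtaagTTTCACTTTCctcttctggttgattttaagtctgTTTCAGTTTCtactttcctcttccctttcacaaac
Bst2 (chr8:71537562-71537627, minus strand): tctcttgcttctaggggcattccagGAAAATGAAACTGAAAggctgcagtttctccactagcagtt
Stat2 (chr10:128270251-128270310, plus strand): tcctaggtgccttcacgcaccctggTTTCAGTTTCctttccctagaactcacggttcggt

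In Isg15 the run holds 3 overlapping matches, the first of which starts 78 bases before the gene start. The stretches of Ifit3 and Ifit3b are the same over 94 bases, with 0 differences, and those of Oas1a and Oas1g have 0 differences over the 43 bases shared. These letters describe the windows and do not show that a factor was bound in these cells.

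The comparison of KO with WT asks whether loss of Vps33b shifted the interferon-stimulated programme of HDM-exposed cDC1s, and no member passed the test. Of 33 members tested, 0 had an edgeR quasi-likelihood adjusted p under 0.05, and the same held for 0 of all 12568 genes tested (0%). The median log2 fold change of the members, KO over WT, was 0.02, beside 0.004 over all genes tested, with 18 members above 0 and 15 below (50.6% of all genes tested were above 0). At an unadjusted p under 0.05 there were 2 members, Ifi35 higher and Cmpk2 lower in KO, against 5.77% of all genes tested. Only Ifi35 had KO and WT values that did not overlap, 1 of 33 members, where 10.6% of all genes tested did so. The first count is near the share of all genes and the second is below it. None of the 33 members was called by DESeq2, which called 10 genes elsewhere, or by limma-voom, which called 0 genes.

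**Figure D1:**
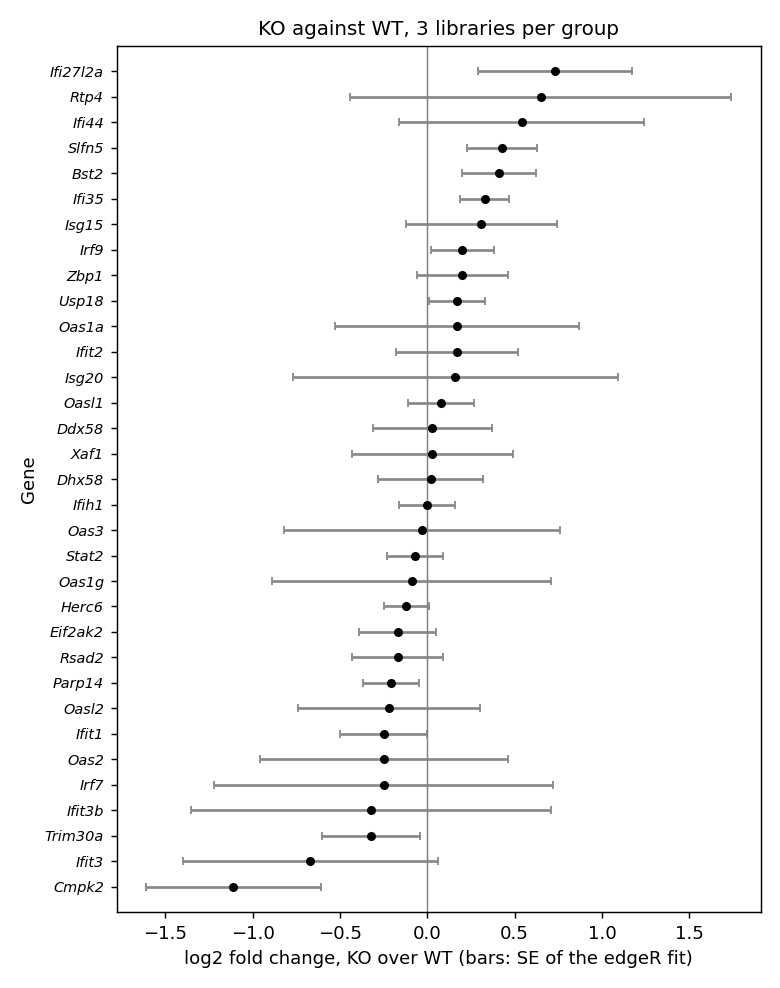
Log2 fold change of each of the 33 members, KO over WT, from the edgeR fit across all genes, with bars for 1 SE and 3 libraries per group. The estimates run from -1.11 for Cmpk2 to 0.73 for Ifi27l2a, and the longest bars belong to Rtp4, Ifit3b and Irf7.

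The members varied between libraries of the same genotype instead. The mean of their log2 CPM, centred on each gene's mean over the 6 libraries, was -0.64, 0.04 and 0.60 in KO replicates 1, 2 and 3, against -0.13, 0.71 and -0.57 in WT replicates 1, 2 and 3. Each group thus held a low and a high library, and the group means of this score were both 0.00, with an SD of 0.62 in KO and 0.65 in WT (n = 3 each). KO replicate 3 had the highest level of 15 members and WT replicate 2 of 17, where these libraries were the highest for 19.1% and 18.4% of all genes tested. The remaining member, Usp18, was highest in KO replicate 2. KO replicate 1 had the lowest level of 14 members and WT replicate 3 of 13, against 14.9% and 14.5% of all genes tested.

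**Figure D2:**
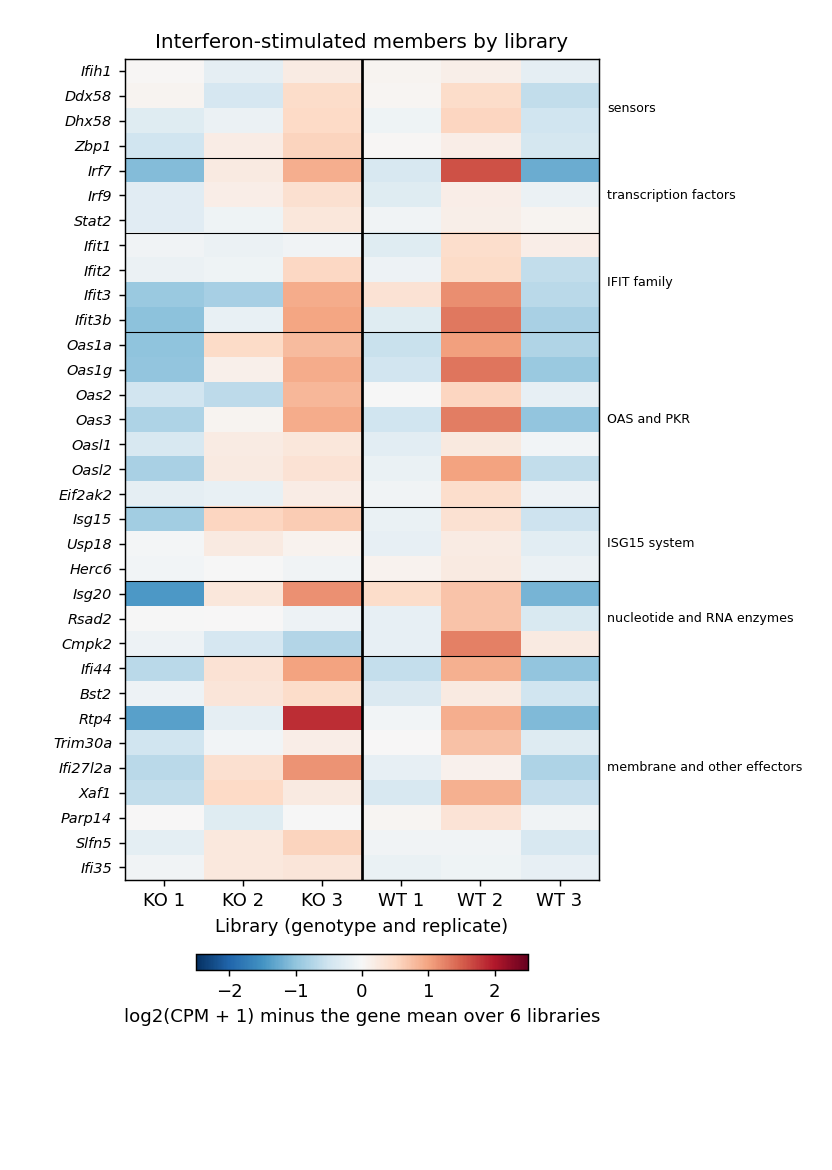
Centred log2(CPM + 1) of the 33 members in 6 libraries, with KO on the left and rows grouped by role. Red is above and blue below the gene's own mean, and the columns of KO replicate 3 and WT replicate 2 are mostly red while those of KO replicate 1 and WT replicate 3 are mostly blue.

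The sign of the group difference accordingly depended on which libraries were compared. Without WT replicate 2 the median log2 fold change of the members was 0.34, with 27 of 33 above 0 (50.1% of all genes tested). Leaving out KO replicate 1 gave 0.24, with 24 above 0 (49.0% of all genes). The median was -0.21 when KO replicate 3 was left out, with 8 above 0 (49.6%), and -0.21 when WT replicate 3 was, with 11 above 0 (50.5%). Leaving out WT replicate 1 gave -0.10 and leaving out KO replicate 2 gave 0.02. Without KO replicate 1, 6 members were higher in KO at an unadjusted p under 0.05 (6.49% of all genes tested), and 7 members had groups that did not overlap (30.6% of all genes tested). No member passed the edgeR adjusted threshold in any of these 6 fits. Limma-voom with library quality weights, which counts KO replicate 1 and WT replicate 2 least, gave a median of 0.27.

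**Figure D3:**
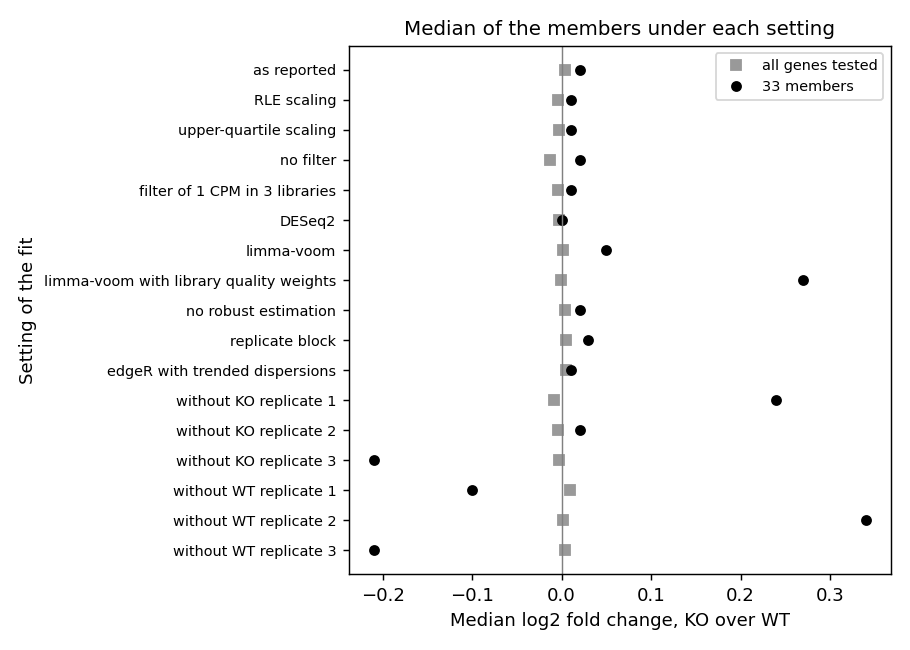
Median log2 fold change, KO over WT, of the 33 members (circles) and of all genes tested (squares) under each setting of the fit. The squares stay close to 0, while the circles run from -0.21 without KO replicate 3 or WT replicate 3 to 0.34 without WT replicate 2.

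Among the transcription factors, Irf7 varied most and the ISGF3 subunits Irf9 and Stat2 less. Irf7 (ENSMUSG00000025498, chromosome 7, 141262706 to 141266481 in mm10), the factor that amplifies interferon production, was at 23.9, 60.3 and 97.5 CPM in KO replicates 1 to 3, against 39.1, 158 and 21.3 CPM in WT replicates 1 to 3. The WT libraries enclosed all 3 KO libraries, and WT replicate 2 had 7.40 times the level of WT replicate 3. The log2 fold change was -0.25 ± 0.97 (SE). Irf9 was at 105, 142 and 168 CPM in KO libraries, against 103, 143 and 115 CPM in WT libraries, and the groups overlapped. Stat2 was at 110.3 ± 22.8 CPM in KO and 116 ± 8.77 CPM in WT (SD, n = 3 each).

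Of the sensors of viral nucleic acid, Ifih1 was the steadiest. It encodes MDA5, a sensor of long double-stranded RNA, and had the highest mean CPM of the sensors. Its level was 67.0, 56.0 and 75.5 CPM in KO libraries, against 68.4, 72.8 and 56.2 CPM in WT libraries, a log2 fold change of 0.00 ± 0.16 (SE). The values lay within 1.35-fold in KO and 1.30-fold in WT. Zbp1, a sensor of Z-form nucleic acid, averaged 61.9 ± 22.0 CPM in KO and 53.8 ± 11.4 CPM in WT. Dhx58, which encodes LGP2, averaged 32.8 ± 10.4 CPM in KO and 32.2 ± 12.4 CPM in WT. Ddx58, which encodes RIG-I, a sensor of RNA with a 5′ triphosphate, averaged 12 ± 3.85 CPM in KO and 11.6 ± 4.47 CPM in WT (SD, n = 3 each). None of these 4 genes had groups that stood apart, where 10.6% of all genes tested did. The highest library was KO replicate 3 or WT replicate 2 in each, which were the highest for 19.1% and 18.4% of all genes tested.

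The 2′-5′ oligoadenylate synthetases (OAS), which activate the RNA-cutting enzyme RNase L, spread widely within each group. Oas1a was at 10.6, 31.7 and 39.6 CPM in KO libraries, against 14.9, 46.7 and 12.8 CPM in WT libraries. Oas1g was at 3.91, 9.58 and 17.5 CPM in KO libraries, against 5.99, 23.4 and 4.08 CPM in WT libraries. Oas3 averaged 19.6 ± 11.6 CPM in KO and 20.2 ± 18.5 CPM in WT (SD, n = 3 each). All 3 were highest in WT replicate 2, with KO replicate 3 highest within KO. Of the 150-base windows of Oas1a transcripts, 32.4% also occur in Oas1g, and 24.1% of those of Oas1g occur in Oas1a, so the counting could split or drop such reads. Oasl2, an OAS-like protein, was at 20.6, 42.9 and 47.6 CPM in KO libraries, against 32.8, 74.6 and 23.5 CPM in WT libraries. Oasl1, an OAS-like protein known in mouse to limit translation of Irf7, had the highest CPM of this group. It was at 106, 163 and 172 CPM in KO libraries, against 118, 167 and 135 CPM in WT libraries, with a smaller spread than the other OAS genes in both groups. Eif2ak2, which encodes the RNA-activated kinase PKR, averaged 23.0 ± 3.84 CPM in KO and 25.9 ± 6.20 CPM in WT. Oas2 was the lowest member per length, at 0.378 CPM per kb over all libraries.

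**Figure D4:**
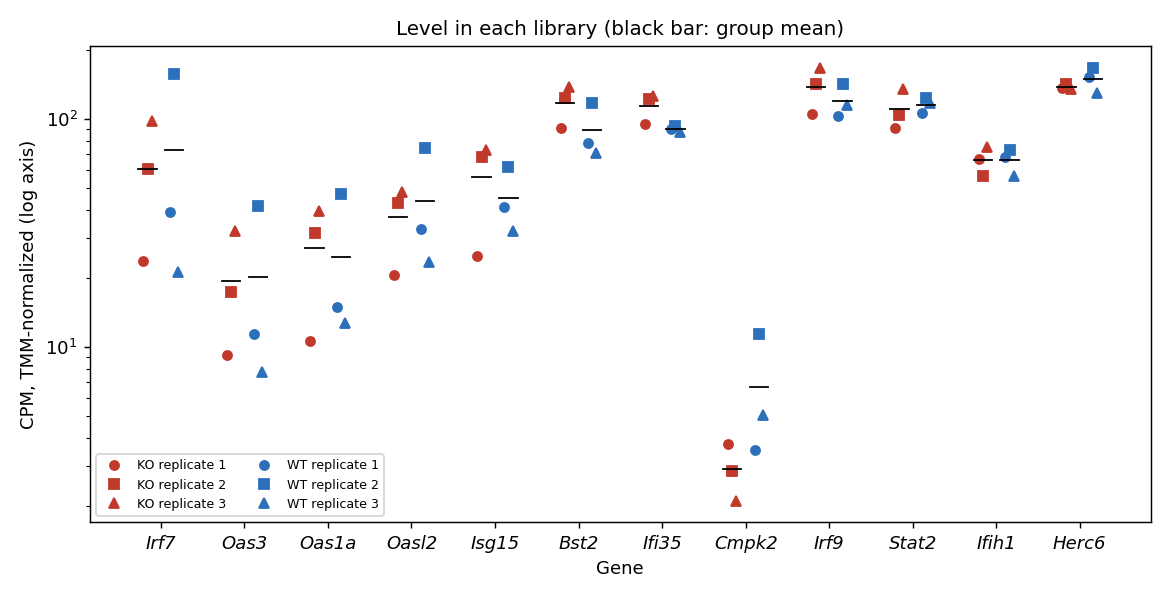
CPM on a log axis in each library for 12 members, KO to the left of WT for each gene, with a black bar at the group mean. For Irf7, Oas3, Oas1a and Oasl2 the libraries of 1 genotype lie far apart and WT replicate 2 is on top, while Stat2, Ifih1 and Herc6 form tighter groups.

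The IFIT family, RNA-binding proteins that block translation of foreign RNA, lies in a cluster on chromosome 19 from 34550694 to 34650009. Only Ifit1 within KO had a spread below the median of all genes tested. Ifit1 was at 12.3, 11.7 and 12.3 CPM in KO libraries, against 10.4, 18.1 and 14.8 CPM in WT libraries, an SD on the log2 scale of 0.04 in KO and 0.40 in WT. Ifit3 was at 1.30, 1.46 and 7.32 CPM in KO libraries, against 4.62, 8.79 and 1.75 CPM in WT libraries. Its near-copy Ifit3b was at 0.145, 1.05 and 3.62 CPM in KO libraries, against 0.879, 4.80 and 0.318 CPM in WT libraries. Both were highest in KO replicate 3 within KO and in WT replicate 2 within WT. Of their 150-base windows, 18.5% of those of Ifit3 are found in Ifit3b and 16% of those of Ifit3b in Ifit3. Ifit2 averaged 9.69 ± 2.99 CPM in KO and 8.63 ± 3.66 CPM in WT (SD, n = 3 each).

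In the ISG15 system, a ubiquitin-like modifier and its enzymes, the modifier varied more than the enzymes did. Isg15 was at 25, 68.4 and 73.2 CPM in KO libraries, against 41.3, 61.3 and 32.4 CPM in WT libraries, a log2 fold change of 0.31 ± 0.43 (SE). Usp18, which removes ISG15 and holds back the receptor, averaged 94.5 ± 8.37 CPM in KO and 84.1 ± 15.5 CPM in WT. Herc6, known in mouse as the main ligase for ISG15, was at 137, 143 and 135 CPM in KO libraries, against 152, 168 and 129.6 CPM in WT libraries. The highest library was 1.06 times the lowest in KO and 1.30 times the lowest in WT, so that this member was among the steadiest. Of the exon bases of Herc6, 13.7% are shared with the same-strand gene Gm45193, so its count is uncertain.

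The enzymes of nucleotides and RNA included the member with the lowest fold change. Cmpk2, a mitochondrial nucleotide kinase, was at 3.77, 2.86 and 2.12 CPM in KO libraries, against 3.52, 11.4 and 5.03 CPM in WT libraries. The groups overlapped, and WT replicate 2 stood above the other 5 libraries. Its log2 fold change, -1.11 ± 0.50 (SE), had an edgeR adjusted p of 0.834. Without WT replicate 2 it was -0.54, and with each other library left out it lay between -1.43 and -0.97. Rsad2, which encodes viperin and lies beside Cmpk2 on chromosome 12, was at 94.5, 95.8 and 87.2 CPM in KO libraries, against 83.1, 157 and 73.6 CPM in WT libraries. Its KO values lay within 1.10-fold. Isg20, an exonuclease that cuts single-stranded RNA, had 0, 39 and 56 counts in KO libraries, against 49, 51 and 4 counts in WT libraries. The count of 0 in KO replicate 1 allows a level of up to 0.221 CPM.

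The membrane proteins and other effectors held the members with the highest fold changes, and none passed the adjusted threshold. Ifi35, which binds the interferon-induced protein NMI, was at 95.1, 122 and 126 CPM in KO libraries, against 90.2, 93.6 and 88.1 CPM in WT libraries. Every KO library lay above every WT library, KO replicate 1 by little, and the groups overlapped under upper-quartile scaling. The edgeR adjusted p was 0.834, at a log2 fold change of 0.33 ± 0.14 (SE). Opposite-strand exons of Gm11626 cover 16.8% of the exon bases of Ifi35, and whether counting used strand is unknown here. Slfn5, a Schlafen family protein, was at 46.3, 66.6 and 81.6 CPM in KO libraries, against 51.5, 51.7 and 41.3 CPM in WT libraries, and KO replicate 1 lay among the WT libraries. Its log2 fold change was 0.43 ± 0.20.

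Bst2, which encodes tetherin, a protein that holds budding virus at the cell surface, was the most abundant member per length at 114 CPM per kb. It was at 91.4, 124 and 138 CPM in KO libraries, against 78.3, 118 and 71.1 CPM in WT libraries, and WT replicate 2 lay among the KO libraries. The log2 fold change was 0.41 ± 0.21 (SE). Ifi27l2a, a small membrane protein, was at 11.5, 25.2 and 42.0 CPM in KO libraries, against 16.3, 20.4 and 10.6 CPM in WT libraries, a log2 fold change of 0.73 ± 0.44. Rtp4, a chaperone of membrane receptors, was at 0.29, 1.81 and 10.8 CPM in KO libraries, against 2.14, 5.14 and 0.529 CPM in WT libraries. Its lowest KO value rests on 4 counts, and it shares 13.9% of its exon bases with the same-strand gene Gm45338. For both genes KO replicate 3 was the highest of all 6 libraries.

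The remaining members of this group had WT replicate 2 as the highest WT library. Parp14, an ADP-ribosyltransferase, was at 114, 91.2 and 113 CPM in KO libraries, against 118, 145 and 106 CPM in WT libraries. Trim30a, a TRIM family protein, averaged 99.6 ± 22.4 CPM in KO and 125 ± 48.7 CPM in WT (SD, n = 3 each). Xaf1, which binds the apoptosis inhibitor XIAP, averaged 17.9 ± 6.83 CPM in KO and 18.1 ± 11.5 CPM in WT. Ifi44 averaged 4.24 ± 2.77 CPM in KO and 3.03 ± 2.96 CPM in WT.

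The spread within a group was wider for the members than for genes in general. The SD of log2 CPM had a median over members of 0.43 in KO and 0.54 in WT, beside 0.27 in KO and 0.24 in WT over all genes tested. Restricted to genes whose mean reached 10 CPM, the medians were 0.38 in KO and 0.40 in WT over 25 members, beside 0.20 in KO and 0.18 in WT over 8094 genes. Of these 25 members, 10 in KO and 12 in WT lay above the 90th percentile of those genes. At least a 3-fold ratio of the highest to the lowest library was found for 11 members in KO, counting Isg20 with its library at 0, and for 11 members in WT, and 9 of them were in both groups. These 9 were Irf7, Ifit3, Ifit3b, Oas1a, Oas1g, Oas3, Isg20, Ifi44 and Rtp4. Of them, Ifit3, Ifit3b, Isg20, Ifi44 and Rtp4 averaged only 1.80 to 4.21 CPM over all libraries, so their ratios rest on low counts. The share of all genes tested that reach this ratio was not counted, so these counts of members have no background to be read against. Members with a match to the promoter core had a median SD of 0.41 in KO and 0.54 in WT, and members without one had 0.41 in KO and 0.84 in WT.

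**Figure D5:**
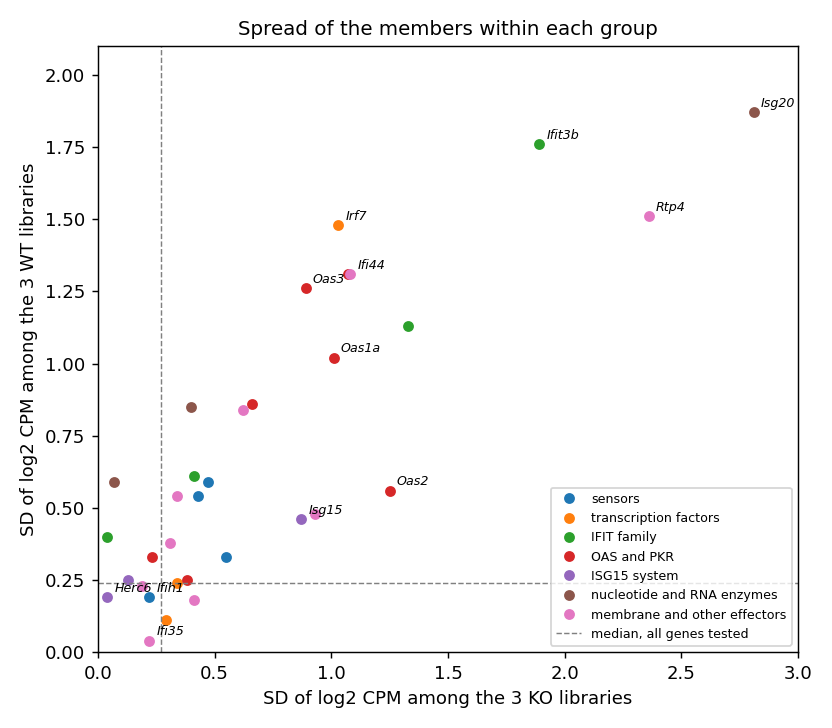
SD of log2 CPM among the 3 KO libraries (horizontal) and among the 3 WT libraries (vertical) for each of the 33 members, coloured by role, with dashed lines at the medians of all genes tested. Isg20, Rtp4 and Ifit3b lie far out in both directions, whereas Herc6, Ifih1 and Ifi35 lie below both lines.

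The transcripts of interferons themselves were at or near 0 in every library. Of 20 interferon genes looked up, 16 had 0 counts in all 6 libraries, which allows up to 0.163 to 0.255 CPM per library. Ifnb1 had 0 counts in KO libraries and 3 counts in WT replicate 2, with 0 in the other WT libraries. Ifnl3 had 14 counts in KO replicate 1 and 0 elsewhere, and no library exceeded 4 counts of any other interferon gene. Protein reaching the cells from elsewhere is not measured by these files.

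Both chains of the type I receptor were present at levels that differed little between libraries. Ifnar1 was at 154 ± 4.31 CPM in KO and 165 ± 7.39 CPM in WT, and Ifnar2 at 64.6 ± 4.67 CPM in KO and 62.1 ± 8.32 CPM in WT (SD, n = 3 each). Of 8 receptor and signalling genes tested, 0 passed the edgeR adjusted threshold, and at an unadjusted p under 0.05 (5.77% of all genes tested) there was 1, Ifnlr1, which encodes the interferon lambda receptor (-0.78 ± 0.34, log2 fold change ± SE). Il10rb, which pairs with it, was at 0.15 ± 0.13. Of 15 genes that induce interferon, 0 passed at either level. Myd88, the Toll-like receptor adaptor, was at 0.31 ± 0.19, and Tlr3, the receptor for double-stranded RNA, at -1.19 ± 0.67. Irf3, which starts interferon transcription, was at 81.5 ± 11.3 CPM in KO and 78.2 ± 4.34 CPM in WT.

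Of 14 negative regulators, 0 passed the edgeR adjusted threshold, and 3 were higher and 1 was lower in KO at an unadjusted p under 0.05, against 2.71% and 3.06% of all genes tested. Ptpn2, a phosphatase that acts on JAK1, was at 165, 166 and 148 CPM in KO libraries, against 124, 125 and 112 CPM in WT libraries. All KO libraries lay above all WT libraries, with a log2 fold change of 0.41 ± 0.12 (SE) and an edgeR adjusted p of 0.834. Ptpn11, which encodes the phosphatase SHP2, was at 61.9, 44.0 and 47.2 CPM in KO libraries, against 75.9, 69.5 and 70.3 CPM in WT libraries. All KO libraries lay below all WT libraries, with a log2 fold change of -0.50 ± 0.16 and the same adjusted p.

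Further interferon-stimulated genes, outside the 33 members, were also most often highest in KO replicate 3 or WT replicate 2. Of 56 such genes tested, 18 were highest in KO replicate 3 and 21 in WT replicate 2, where these libraries were the highest for 19.1% and 18.4% of all genes tested. Of the same genes, 17 were lowest in KO replicate 1 and 16 in WT replicate 3, where these libraries were the lowest for 14.9% and 14.5% of all genes tested. Their centred mean was -0.31, -0.15 and 0.28 in KO replicates 1 to 3, against 0.03, 0.40 and -0.26 in WT replicates 1 to 3. Their median log2 fold change was 0.00, with 28 above 0, and 0 passed the edgeR adjusted threshold. At an unadjusted p under 0.05, 1 was higher (2.71% of all genes tested) and 3 were lower (3.06%), which is near the background. Ube2l6, the conjugating enzyme for ISG15, was at 512, 656 and 672 CPM in KO libraries, against 472, 464 and 456 CPM in WT libraries, a log2 fold change of 0.40 ± 0.13 (SE). Slfn8 had the next smallest p, at -0.73 ± 0.26, and neither passed the adjusted threshold.

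Markers of other cells differed between the libraries too. In bulk RNA, a change in the number of cells of a type and a change in RNA per cell cannot be told apart. The 11 monocyte and macrophage markers summed to 181, 168 and 653 CPM in KO replicates 1 to 3, against 343, 192 and 207 CPM in WT replicates 1 to 3, with KO replicate 3 the highest. Lyz2 alone gave 468 CPM of the sum in KO replicate 3. Cd14, of the same list, was at 3.48, 4.21 and 10.6 CPM in KO libraries, against 15.9, 28.4 and 14.9 CPM in WT libraries, lower in every KO library than in any WT library and highest in WT replicate 2. Its log2 fold change was -1.75 ± 0.41 (SE), and it did not pass the edgeR adjusted threshold. Fcgr1, a monocyte and macrophage marker that interferon also induces, was at 0, 1.28 and 18.2 CPM in KO libraries, against 5.61, 0.879 and 0.424 CPM in WT libraries. The 10 plasmacytoid dendritic cell markers summed to 279 to 303 CPM in KO and 267 to 313 CPM in WT, most of it Spib. Of 9 tested, 2 were lower in KO at an unadjusted p under 0.05 (3.06% of all genes tested), Siglech and Ly6d, and 0 were higher. Siglech, the defining marker among them, was at 3.33, 0 and 1.41 CPM in KO libraries, against 3.85, 5.34 and 12.6 CPM in WT libraries. Every KO library lay below every WT library, and the highest value was in WT replicate 3. The log2 fold change was -2.32 ± 0.78 (SE) for Siglech and -1.61 ± 0.63 for Ly6d, and neither passed the edgeR adjusted threshold. Of the cDC1 markers, Xcr1 and Cd8a, the second of which marks resident cells, were highest in WT replicate 2, at 44.6 CPM and 140.5 CPM. The KO libraries had 5.72 to 11.4 CPM of Xcr1 and 30.2 to 47.3 CPM of Cd8a. The other WT libraries had 13.1 to 13.5 CPM of Xcr1 and 35.4 to 54.0 CPM of Cd8a. Wdfy4, Clec9a, Batf3 and Cadm1 were also highest in WT replicate 2. Irf8 was highest in KO replicate 3, Itgae in WT replicate 3, and Naaa and Tlr3 in WT replicate 1. Among the WT libraries, WT replicate 2 was highest for the mature, migratory markers Ccr7 and Il12b. It was lowest of the WT libraries for Fscn1, Ccl22, Cd80, Cd86 and Relb and for the sum of that list, and in between for Cd40. The 7 B cell markers summed to 305 to 715 CPM in KO and 222 to 586 CPM in WT, most of it immunoglobulin transcripts. The sums were 126 to 227 CPM in KO and 100.3 to 163 CPM in WT for 6 cDC2 markers, mostly Irf4. They were 49.1 to 60.9 CPM in KO and 39.2 to 55.6 CPM in WT for 6 T cell markers. For 5 NK cell and 6 neutrophil markers no sum exceeded 8.73 CPM in KO or 6.43 CPM in WT. Of the 5 NK cell markers, 1 was higher in KO at an unadjusted p under 0.05 (2.71% of all genes tested), Gzma, and 0 were lower. Gzma had 12, 24 and 17 counts in KO libraries, against 5, 0 and 0 counts in WT libraries. Its log2 fold change was 3.60 ± 1.16 (SE), and it did not pass the edgeR adjusted threshold. The part of any of these cells in the values of the members was not tested.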

How the data were processed

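The authors deposited whole-number read counts for each Ensembl gene in the 6 libraries, without normalization. HISAT2 2.0.5, HTSeq and mm10 are named in the submitters' processing notes, and no annotation release, strandedness or rule for multiply matching reads is known. Each count column was tied to its sample by the description label, and gene names (99.8% of features), positions and exon lengths came from GENCODE M21. The members and lists were chosen with earlier results of these data known.

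Genes kept by filterByExpr (12568) entered the quasi-likelihood test of edgeR 4.0.16 (R 4.3.3) after TMM scaling, with robust estimation, the newer dispersion method and genotype as the single term. P-values were adjusted by Benjamini-Hochberg over all genes, at a threshold of 0.05. Alternatives included DESeq2 1.42.0 and limma-voom (limma 3.58.1), other scalings and filters, a replicate block and leaving out each library. The SE is the size of the log2 fold change divided by the square root of F. All 33 members passed the filter. Log2 CPM used a prior count of 2. A count of 0 was given the upper limit of 3 counts, which covers counting error only. Shared 150-base windows were exact matches among GENCODE transcripts.

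Members given in full were those with the 6 smallest p, the highest mean CPM of each role, the 4 largest and 4 smallest within-group ratios at a mean of 1 CPM or more, and near-identical pairs, and the 2 smallest p of each pathway list. A further gene of another list, named for its value, was chosen after values were seen. The test was also run on simulated data, with results not reported here. Some genes of the pathway lists are not analysed or not reported here.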

Additional observations from a re-analysis of the deposited data

How the results depend on the processing

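No member was called under the 10 alternatives of scaling, filter, tool or model, nor with any 1 of the 6 libraries left out. The number of genes called over the whole table, 0 as reported, was 10 with DESeq2, 3 without a filter, and 0 to 7 with 1 library left out. Members at an unadjusted p under 0.05, 2 as reported, numbered 1 with limma-voom and 1 without robust estimation. They numbered 3 without a filter, 3 with library quality weights and 3 with a replicate block. With 1 library left out they numbered 0 to 6, the highest without KO replicate 1. Members with groups that did not overlap, 1 as reported, numbered 0 with upper-quartile scaling and 1 to 7 with 1 library left out, against 16.8% to 30.6% of all genes tested. The score difference, KO minus WT, was 0.00 as reported and -0.31 to 0.34 with 1 library left out.

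Of 330 member values under those 10 alternatives, 310 kept the direction of the log2 fold change and 20 did not, and the cause was not tested. Ifih1 was at -0.01 with RLE scaling, upper-quartile scaling and a filter of 1 CPM in 3 libraries, and at 0.00 without a filter and with DESeq2, limma-voom and quality weights. Xaf1 was at -0.03 with DESeq2 and -0.01 with trended dispersions, an alternative chosen after seeing the data. With limma-voom, Isg20 was at -0.69, Oas1g at 0.12, Oas3 at 0.20 and Irf7 at 0.07. With quality weights, Ifit3b was at 0.39, Oas1g at 0.54, Oas3 at 0.57, Oasl2 at 0.18, Irf7 at 0.53 and Rsad2 at 0.03.

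With 1 library left out, 13 members kept their direction and 20 did not. The log2 fold change then lay between -0.69 and 0.74 for Isg20, -0.10 and 0.50 for Ifit2, -1.49 and 1.27 for Ifit3b, -0.16 and 0.96 for Oas1a, and -0.61 and 0.98 for Oas1g. It lay between -1.32 and 0.22 for Oas2, -0.53 and 0.99 for Oas3, -0.05 and 0.26 for Oasl1, -0.53 and 0.39 for Oasl2, and -0.75 and 0.98 for Irf7. It lay between -0.37 and 0.24 for Rsad2, -0.25 and 0.04 for Stat2, -0.11 and 0.10 for Ifih1, -0.24 and 0.30 for Ddx58, and -0.25 and 0.34 for Dhx58. It lay between -1.11 and 1.52 for Rtp4, -0.53 and 0.02 for Trim30a, -0.06 and 0.44 for Zbp1, -0.28 and 0.65 for Xaf1, and -0.31 and 0.03 for Eif2ak2.

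With the replicate number as a block, 0 genes were called, 3 members had an unadjusted p under 0.05, the median log2 fold change of the members was 0.03, and Oas3 was at 0.04. The same-numbered libraries did not deviate together (correlations 0.005, 0.028 and -0.001), and not every library correlated best with its own number, so the numbers were not taken to pair the samples. Members at few counts, such as Isg20, Rtp4 and Ifit3b, are limited by depth, with 0 to 4 counts in their lowest KO library.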

Other observations

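A group of TRIM genes around Trim30a on chromosome 7, from 104218793 to 104507849 in mm10, held wide gaps of WT replicate 2 to the other libraries, and was chosen after its values were seen. Trim12a was at 1.38, 1.17 and 1.76 CPM in KO replicates 1 to 3, against 1.10, 32.1 and 1.38 CPM in WT replicates 1 to 3. In WT replicate 2 it was thus 18.2-fold the highest other library. Trim30d was at 4.13, 7.07 and 8.38 CPM in KO libraries, against 6.87, 68.5 and 5.93 CPM in WT libraries, and Trim34a at 8.76, 5.84 and 8.11 CPM in KO libraries, against 8.90, 48.9 and 10.8 CPM in WT libraries. WT replicate 2 was 8.18-fold the highest other library for Trim30d and 4.53-fold for Trim34a, but 1.48-fold for the member Trim30a. Smaller gaps of WT replicate 2 were seen for Trim6 (1.77-fold), Trim5 (2.65-fold) and Trim30b (2.06-fold, at 3.52 CPM). The neighbours Trim34b and Trim12c within the same stretch did not stand out in that library. Trim34b was at 20.9, 20.4 and 14.3 CPM in KO libraries, against 18.7, 22.7 and 22.5 CPM in WT libraries. Trim12c was at 93.9, 87.2 and 81.8 CPM in KO libraries, against 84.9, 72 and 78.4 CPM in WT libraries. Trim30a shares 3.24% of its 150-base transcript windows with Trim30d, and windows shared among the other genes were not counted.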
